A study of Caenorhabditis elegans with 2 samples.

Results

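Autosomal intergenic peaks of the transcription factor CEH-32 were the pooled-list peaks whose summit lay on an autosome and away from gene starts. They were chosen by position alone. A summit had to lie outside every annotated protein-coding gene. It had to keep clear of all promoter windows, which ran from 1000 bp before each start of a protein-coding transcript to 500 bp past it, and to stand over 100 bp from any tRNA, snRNA, snoRNA, ncRNA or piRNA gene. Of the 10485 peaks in the relaxed list made from pooled replicates, 1356 met the rule, and 8303 lay on autosomes in all. Of these 1356 members, 27 were also in the thresholded optimal list of 412 peaks, which the authors drew by the reproducibility of peak ranks between replicates (irreproducible discovery rate, IDR). Signals below are those of the authors' peak caller, in arbitrary units with a scale of their own in each list. The optimal list held the 412 peaks of highest pooled signal.

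The assay was chromatin immunoprecipitation followed by sequencing (ChIP-seq) on whole Caenorhabditis elegans hermaphrodites at the fourth larval stage (L4). There was 1 group with 2 biological replicates from separate biosamples, and no second genotype or treatment to set it against. All worms were of strain OP516, genotype unc-119(tm4063) III; wgIs516, a single transgenic line that stably expresses CEH-32 with a C-terminal GFP-FLAG tag. They were collected 52 hours after being synchronised as L1 larvae, starved following bleaching. Chromatin was sonicated, and the precipitation used an antibody against GFP per the sample descriptions, although the antibody field names ceh-32. No control library was analysed here. The files list peaks and no read counts, so depth is unknown. In whole animals, binding in a few cells and weak binding in many cells cannot be told apart.

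CEH-32 is a homeodomain protein of the sine oculis family, a group of transcription factors best known from eye and head development in flies and vertebrates. Proteins of this family often act together with PAX and EYA proteins. Worm genes are packed closely, and most known regulatory sequence sits just upstream of gene starts. Sequence between genes and away from starts can hold distal enhancers, unannotated promoters of noncoding RNA, and repeats.

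The strongest of these peaks differed in the sequence under the summit. Given here is the summit with 50 bp on each side for 5 optimal members that hold GAGAGA, the GA repeat discussed below. The 3 that follow lack GAGAGA: the first and second by signal, and the peak upstream of the gene of CEH-32 itself. Sequences are from the RefSeq copy of build ce11 (WBcel235), plus strand, 5′ to 3′. Capitals mark GAGAGA and ACGCAG read on either strand (TCTCTC and CTGCGT).
T04C4.3 peak (chrIV:2219535-2219635): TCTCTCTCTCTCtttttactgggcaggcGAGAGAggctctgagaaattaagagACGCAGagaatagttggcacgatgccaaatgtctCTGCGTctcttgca
hif-1 peak (chrV:20778328-20778428): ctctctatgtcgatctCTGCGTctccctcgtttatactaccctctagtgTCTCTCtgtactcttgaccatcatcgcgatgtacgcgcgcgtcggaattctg
mtm-3 peak (chrIII:3801460-3801560): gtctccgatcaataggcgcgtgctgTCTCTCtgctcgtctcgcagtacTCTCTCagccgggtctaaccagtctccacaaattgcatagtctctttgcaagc
nhr-88 peak (chrII:2974016-2974116): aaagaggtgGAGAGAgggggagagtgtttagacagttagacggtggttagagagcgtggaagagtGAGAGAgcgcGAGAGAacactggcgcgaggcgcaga
znf-782 peak (chrIV:1070541-1070641): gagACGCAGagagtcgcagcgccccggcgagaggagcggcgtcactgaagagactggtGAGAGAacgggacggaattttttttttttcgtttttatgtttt
sup-26 peak (chrIII:4282134-4282234): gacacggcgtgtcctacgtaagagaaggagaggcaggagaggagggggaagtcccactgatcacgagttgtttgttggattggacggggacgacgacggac
cmd-1 peak (chrV:1151445-1151545): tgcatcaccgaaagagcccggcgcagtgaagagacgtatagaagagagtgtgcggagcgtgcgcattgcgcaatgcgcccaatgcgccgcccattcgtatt
ceh-32 peak (chrV:11707605-11707705): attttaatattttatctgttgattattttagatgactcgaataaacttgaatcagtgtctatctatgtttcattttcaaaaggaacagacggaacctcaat

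The T04C4.3 window began with a run of TCTCTC and also held GAGAGA in the opposite sense. The T04C4.3, hif-1 and znf-782 windows held ACGCAG as well. The nhr-88 window carried GAGAGA at 3 separate places. The sup-26 and cmd-1 windows were rich in G and C, at 58.4% each, without either hexamer. The cmd-1 window did hold AGAGAG, a shifted form of the GA repeat that is not marked. The ceh-32 window was AT-rich, at 27.7% GC, and held neither.

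**Figure D1:**
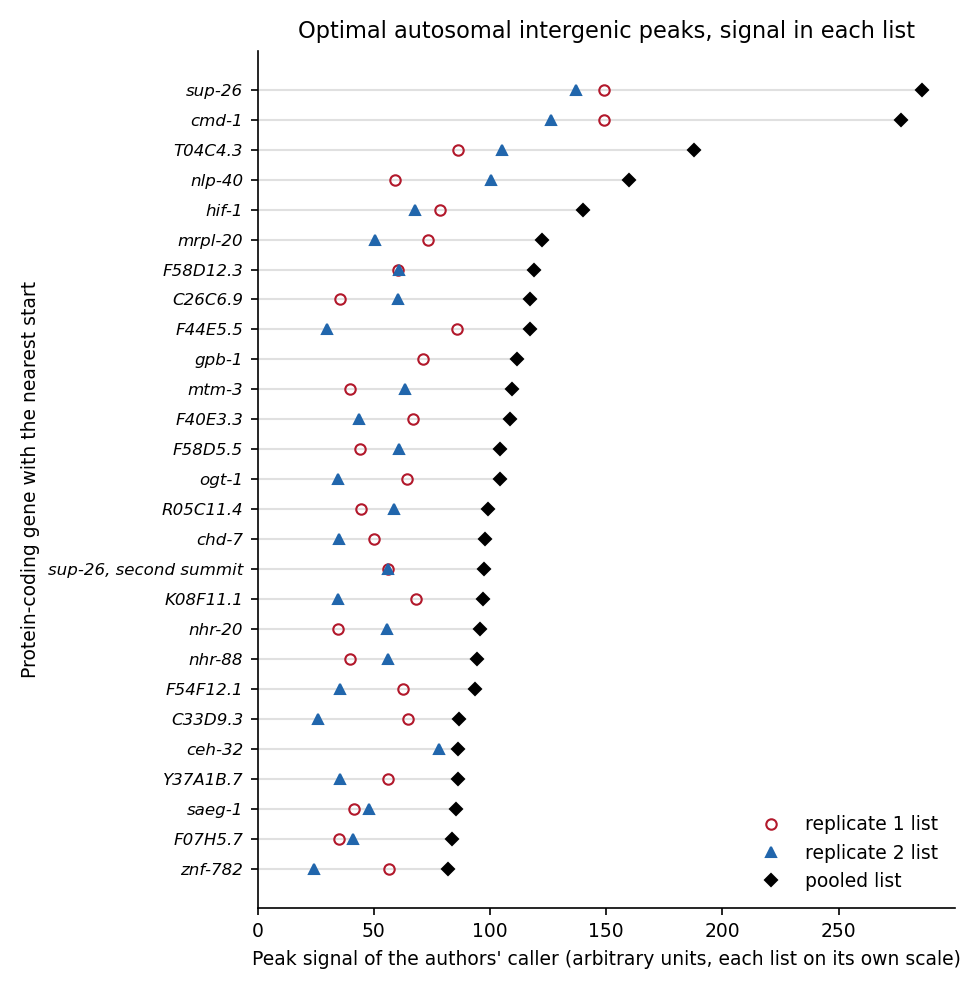
Peak signal (x axis, arbitrary units) of the 27 optimal autosomal intergenic peaks, each a row named by the protein-coding gene with the nearest start. Diamonds are the pooled list, open circles replicate 1 and triangles replicate 2. The sup-26 and cmd-1 peaks, at 286 and 277, stand above the other 25, and gpb-1 lacks a triangle and ceh-32 a circle because no summit of that replicate lay within 100 bp.

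The 2 strongest members stood apart from the other optimal ones in all 3 lists. The peak upstream of sup-26, which encodes an RNA-binding protein, had its summit at position 4282184 of chromosome III, with signals of 149 in replicate 1, 137 in replicate 2 and 286 in the pooled list. It lay 1960 bp upstream of the sup-26 start, in a gap of 5616 bp between sup-26 and R10E4.3. A second optimal summit stood 200 bp farther from the gene, with 56.3 in each replicate and 97.5 pooled, so 2 of the 27 optimal members share 1 region. The peak nearest cmd-1, the calmodulin gene, had signals of 149 in replicate 1, 126 in replicate 2 and 277 pooled. Its summit at position 1151495 of chromosome V lay 4776 bp upstream of cmd-1 and inside the long intergenic noncoding RNA gene linc-128.

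A next group of members had pooled signals between 111 and 188. The T04C4.3 peak on chromosome IV had 86.0 in replicate 1, 105 in replicate 2 and 188 pooled, and lay 2729 bp upstream of that gene. The nlp-40 peak on chromosome I, beside the gene of a neuropeptide released by the intestine, had 59.0 in replicate 1, 100.5 in replicate 2 and 160 pooled. It sat 1887 bp past the nlp-40 start, in a gap of 646 bp between nlp-40 and rcor-1, the ortholog of a vertebrate transcriptional corepressor, which converge on it. The hif-1 peak on chromosome V, upstream of the gene of the hypoxia-inducible factor by 2029 bp, had 78.4 in replicate 1, 67.8 in replicate 2 and 140 pooled. These 3 members were called in both replicates with replicate signals above the optimal members' medians of 59.7 in replicate 1 and 56.0 in replicate 2, except for nlp-40 in replicate 1.

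The other members of this range lay near genes of varied function. The peak 2775 bp upstream of mrpl-20, a mitochondrial ribosomal protein gene on chromosome II, had 73.4 in replicate 1, 50.6 in replicate 2 and 122 pooled. The peak 2626 bp upstream of F58D12.3 on chromosome V had almost equal replicate signals, at 60.4 and 60.7, and 119 pooled. The C26C6.9 peak on chromosome I had 35.5 in replicate 1, 60.6 in replicate 2 and 117 pooled. It lay 3432 bp upstream of C26C6.9 and 3558 bp from goa-1, the gene of a G protein alpha subunit, on the other side. The peak beside F44E5.5, a gene of the Hsp70 family, lay on chromosome II 94 bp past the end of that gene, with 85.6 in replicate 1, 29.7 in replicate 2 and 117 pooled. The gpb-1 peak, 1199 bp upstream of the gene of a G protein beta subunit, had 71.3 in replicate 1 and 111 pooled. Its nearest replicate 2 summit stood 109 bp away with a signal of 48.8, just past the 100 bp allowed for a match.

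The replicates ranked the optimal members differently. Of the 25 optimal members matched in both replicates, 14 had the higher signal in replicate 1, and the median ratio of replicate 1 to replicate 2 was 1.09. Across those 25 peaks Pearson's r was 0.66 and Spearman's rho 0.10. The same values were 0.85 and 0.77 over 29 optimal X-linked intergenic peaks, 0.72 and 0.37 over 111 optimal autosomal promoter peaks, and 0.35 and 0.16 over 25 optimal autosomal intronic peaks. Over all 319 members matched in both replicates, optimal or not, the values were 0.69 and 0.34, and 81 had the higher signal in replicate 1. Optimal peaks are those of highest pooled signal, which both replicates feed. Their correlations therefore cannot stand for the agreement over all members. All these values are descriptions over peaks of the same 2 libraries, and the range of signal differs between classes.

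The remaining optimal members had pooled signals of 82.0 to 110. Among them the mtm-3 peak, beside a myotubularin phosphatase gene on chromosome III, had 39.7 in replicate 1, 63.4 in replicate 2 and 110 pooled. The F40E3.3 peak on chromosome I had 66.8, 43.8 and 109 in the same order of lists, and its window had 8 copies in the genome, the only optimal member with more than 1. The F58D5.5 peak had 104 pooled, and the ogt-1 peak, upstream of the gene of the enzyme that adds O-GlcNAc to proteins, also had 104. The R05C11.4 peak on chromosome IV had 99.3. The chd-7 peak, upstream of a chromatin remodeller gene, had 98.0 and lay inside the noncoding RNA gene linc-91. No optimal summit lay in an annotated pseudogene, miRNA or rRNA gene, and linc-128 and linc-91 were the only annotated noncoding genes that held one.

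Just below the optimal threshold, the next members by pooled signal were near Y47A7.2 (80.9), pan-1 (80.4) and vps-36 (79.8). The lowest optimal member, the znf-782 peak, stood at 82.0.

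The peak upstream of ceh-32 was the optimal member that the replicates shared least. Its summit at position 11707655 of chromosome V lay 2255 bp upstream of the ceh-32 start. It had a signal of 78.0 in replicate 2 and 86.4 pooled. The nearest replicate 1 summit was 913 bp away with a signal of 17.6. It was also the optimal member closest to the small RNA edge of the rule, at 157 bp from the ncRNA gene W05E10.14, and 2 further pooled peaks, 202 and 904 bp away with signals of 37.2 and 55.7, lay within 100 bp of small RNA genes and were no members. Which part of the ceh-32 locus the transgene carries is not given in the sources used here.

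Members near other genes of the sine oculis, PAX and EYA list were weaker. The list holds 10 autosomal genes, 0.058% of the 17242 autosomal protein-coding genes, and 7 members (0.516%) had the nearest start in it. Besides the ceh-32 peak, 3 lay upstream of the sine oculis gene unc-39 with pooled signals of 56.3, 50.9 and 31.9. The first had 33.2 in replicate 2 and no replicate 1 summit, the second 28.8 in replicate 1 and 16.2 in replicate 2, and the last 20.9 in replicate 1 and 30.5 in replicate 2. A further 2 stood between the sine oculis genes ceh-34 and ceh-33 with 35.5 and 29.9 pooled and replicate 1 summits only, and 1 lay 1076 bp upstream of pax-2 with 27.8. By comparison, 1 of 3133 autosomal promoter peaks (0.0319%) had its nearest start in the list. Both shares are descriptions, since several members lie by the same gene.

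The other gene lists gave few optimal members. Nuclear hormone receptor genes (nhr) were nearest to 32 members (2.36%) against 1.43% of autosomal genes and 1.28% of promoter peaks, over 22 distinct genes, and to 2 optimal members. These were the nhr-20 peak, 4608 bp upstream on chromosome III with 34.7 in replicate 1, 55.8 in replicate 2 and 95.7 pooled, and the nhr-88 peak on chromosome II with 39.8, 56.2 and 94.4 in the same lists. Homeobox genes with the prefix ceh were nearest to 11 members (0.811%), against 0.261% of autosomal genes and 0.255% of promoter peaks, over 8 distinct genes, and to the 1 optimal member at ceh-32. The ceh-32 peak and those nearest ceh-33 were also counted in the sine oculis, PAX and EYA list, so these 2 lists overlap. Neuropeptide-like genes (nlp) were nearest to 7 members (0.516%) against 0.302% of autosomal genes and 0.255% of promoter peaks, with nlp-40 the single optimal one. Chemoreceptor genes were nearest to 39 members (2.88%) against 7.26% of autosomal genes, and to no optimal member; the share was 2.3% in autosomal promoter peaks. Collagen genes (col) were nearest to 6 members (0.442%) against 0.748% of autosomal genes and 0.83% of promoter peaks. In the same order, C-type lectin genes (clec) were nearest to 5 (0.369%) against 1.38% and 0.447%. F-box genes were nearest to 6 (fbxa, 0.442%) against 0.905% and 0.351%, and to 3 (fbxb, 0.221%) against 0.586% and 0.096%. Ribosomal protein genes were nearest to 2 (rpl, 0.147%) against 0.261% and 0.766%, and to 4 (rps, 0.295%) against 0.18% and 0.351%. Insulin-like genes (ins) were nearest to 2 (0.147%) against 0.209% and 0.0319%. No member lay nearest a histone (his), FMRFamide-like peptide (flp) or math gene. These are 0.394%, 0.104% and 0.215% of autosomal genes, and are nearest to 0.223%, 0.128% and 0.0319% of promoter peaks. In all, the 1356 members had 1088 distinct nearest genes and the 27 optimal members had 26. Genes with much intergenic sequence around them collect more peaks, which these shares do not take into account.

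Peaks between autosomal genes reached the optimal list less often than those at gene starts or between X-linked genes. The share was 1.99% of the 1356 members (Wilson 95% interval 1.37 to 2.88%), where 3.2% of all autosomal pooled peaks were optimal. In X-linked intergenic peaks it was 5.15% (30 of 583; 3.63 to 7.25%), and the log2 odds ratio of members over them was -1.41 ± 0.39 (SE; 95% interval -2.17 to -0.66; adjusted p = 0.00171 by the two-sided exact test of Fisher, with Benjamini-Hochberg adjustment over 5 tests). In autosomal promoter peaks it was 3.89% (122 of 3133; 3.27 to 4.63%), with a log2 odds ratio of -0.98 ± 0.31 (-1.58 to -0.37; same exact test, adjusted p = 0.0019). With the promoter window taken from 2000 bp upstream, the log2 odds ratio against promoter peaks was -0.45 with an adjusted p of 0.18 by the exact test, and with only the stronger 1/2 of the optimal list it was -1.02 with an adjusted p of 0.0681. In autosomal intronic peaks the share was 1.72% (27 of 1569; 1.19 to 2.49%), and the log2 odds ratio of 0.21 ± 0.39 had an interval of -0.56 to 0.98 (exact test, adjusted p = 0.68). On the replicate 1 list alone it was 0.83 with an adjusted p of 0.0465 by the exact test, and on the replicate 2 list alone 0.70 with 0.0946. Wherever a replicate list is used alone here, its own 412 peaks of highest signal stand in for the optimal list. Peaks of the same 2 libraries are not replicates, so these tests cover counting error only.

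**Figure D2:**
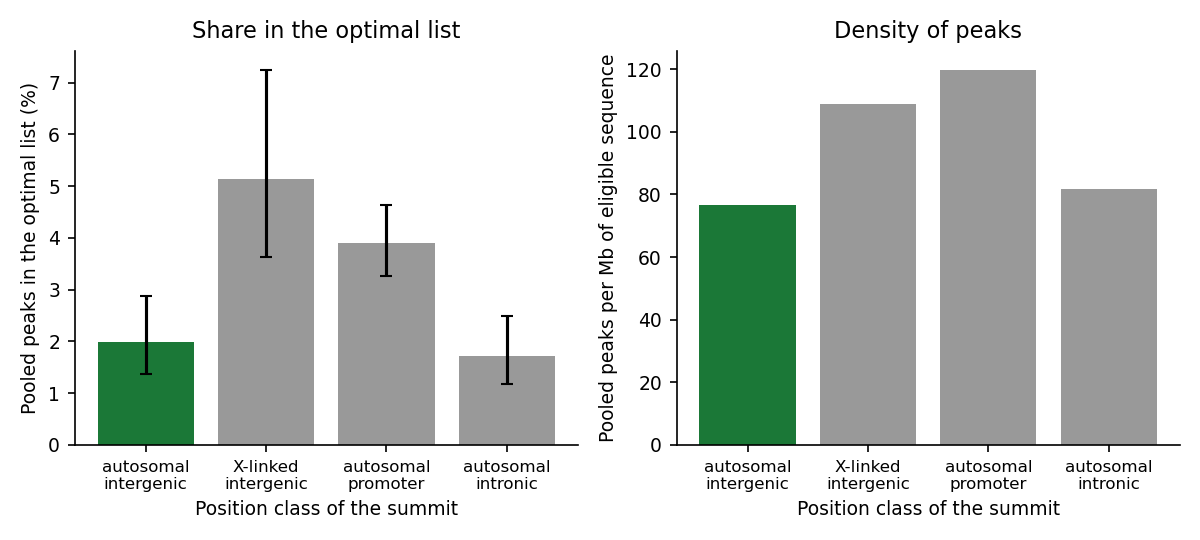
Left, share of pooled peaks in the optimal list (%) by position class, with Wilson 95% intervals. Right, pooled peaks per Mb of sequence that meets the position rule of each class. Autosomal intergenic peaks (green, 1.99% and 76.7 per Mb) sit below X-linked intergenic peaks (5.15% and 109 per Mb) and autosomal promoter peaks (3.89% and 120 per Mb).

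Per length of sequence, members were sparser than X-linked intergenic and autosomal promoter peaks and close to intronic ones. Autosomal sequence that meets the rule measured 17.7 Mb, 21.4% of the autosomes, and held 76.7 members per Mb and 1.53 optimal members per Mb. X-linked intergenic sequence held 109 peaks and 5.61 optimal peaks per Mb, autosomal promoter windows 120 and 4.67, and autosomal introns 81.8 and 1.41. On single autosomes the members numbered 252 on chromosome I, 250 on II, 262 on III, 305 on IV and 287 on V, or 92.0, 72.6, 96.6, 79.9 and 57.8 per Mb. Each autosome had 5 or 6 optimal members. The outer parts of the chromosomes, 1/3 of the length at each end, held 75.5 members per Mb and 21 of the 27 optimal ones in 12.2 Mb, against 79.3 members per Mb and 6 optimal ones in the 5.5 Mb of the middle.

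Most members lay upstream of the nearest protein-coding start, although the end of another gene could be closer. That start was downstream of the summit for 67.2% of all members (64.6 to 69.6%) and for 22 of the 27 optimal ones (81.5%; 63.3 to 91.8%). The rule leaves out the inside of genes, which removes much of the sequence past a start. The upstream share over all sequence that meets the rule was not computed. The distance to the nearest start had a median of 2436 bp for all members and 2467 bp for the optimal ones, which ranged from 1043 bp at mtm-3 to 9440 bp at Y37A1B.7. Between 2000 and 5000 bp from a start, 18 of 604 members (2.98%; 1.89 to 4.66%) were optimal. From 1000 to 2000 bp 6 of 466 were (1.29%; 0.591 to 2.78%), beyond 5000 bp 3 of 236 were (1.27%; 0.433 to 3.67%), and closer than 1000 bp, past the start, none of 50 was. The intervals of these shares overlap.

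**Figure D3:**
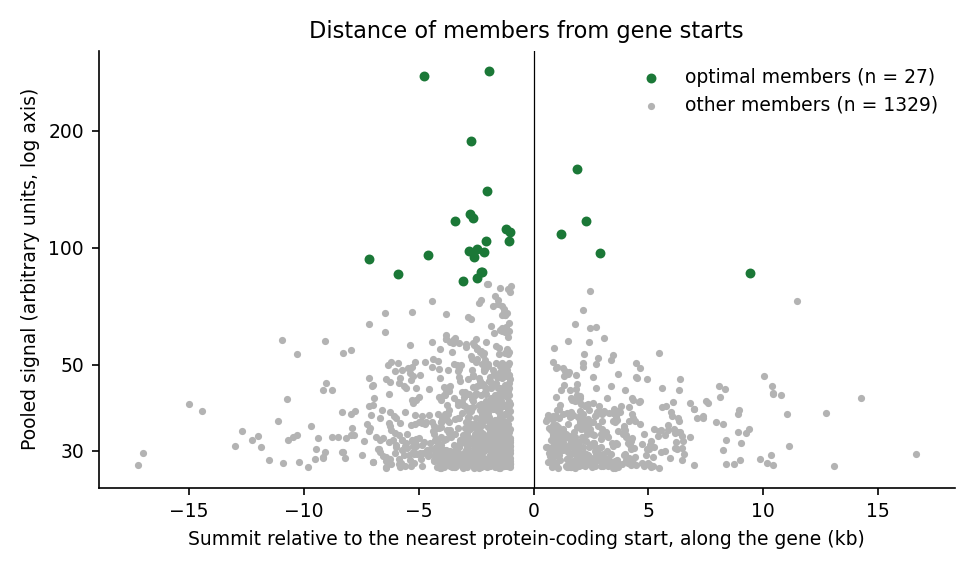
Pooled signal (log axis, arbitrary units) of each member against the position of its summit relative to the nearest protein-coding start, in kb along the gene with upstream negative. The 27 optimal members (green) lie 1043 to 9440 bp from a start and 22 of them lie upstream. The empty band around 0 and the absence of summits inside genes are set by the position rule.

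Members in gaps between 2 converging genes had the lowest share found in both replicates. Gaps between genes in tandem held 756 members, divergent gaps 399 and convergent gaps 201. Their summits recurred in both replicates in 24.2% (21.3 to 27.4%), 27.6% (23.4 to 32.2%) and 12.9% (8.98 to 18.3%) of cases, so the interval of the convergent gaps lay below the other 2. The optimal members numbered 16, 9 and 2 in these contexts, the last being the nlp-40 and Y37A1B.7 peaks. Apart from protein-coding and small RNA genes, 88 summits lay in other annotated genes, namely 65 in pseudogenes, 20 in long intergenic noncoding RNA genes, 2 in the miRNA gene cel-mir-8209 and 1 in the antisense RNA gene anr-35.

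Most members were weak, and few weak ones recurred. The pooled signal of the 1356 had a median of 32.9 and quartiles of 29.3 and 39.7. Replicate 1 had a summit within 100 bp of 625 members (46.1%) and replicate 2 of 849 (62.6%). Both had one for 319 members (23.5%; 21.3 to 25.9%) and neither for 201. The share found in both was 3.38% of the 414 members with a pooled signal under 30 and 17.8% of the 614 from 30 to under 40. It reached 52.3% of the 258 from 40 to under 60, 83.7% of the 43 from 60 up to the optimal list, and 92.6% of the 27 optimal ones. A like share for all pooled signals was 23.3% in X-linked intergenic peaks (20.1 to 26.9%), 25.8% in autosomal promoter peaks (24.3 to 27.4%) and 15.7% in autosomal intronic peaks (13.96 to 17.6%). The pooled list was built from the same reads as the replicate lists, so recurrence and pooled signal are linked by construction. A stretch can also hold several summits: 130 members, and 8 of the 27 optimal ones, had another member within 500 bp.

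**Figure D4:**
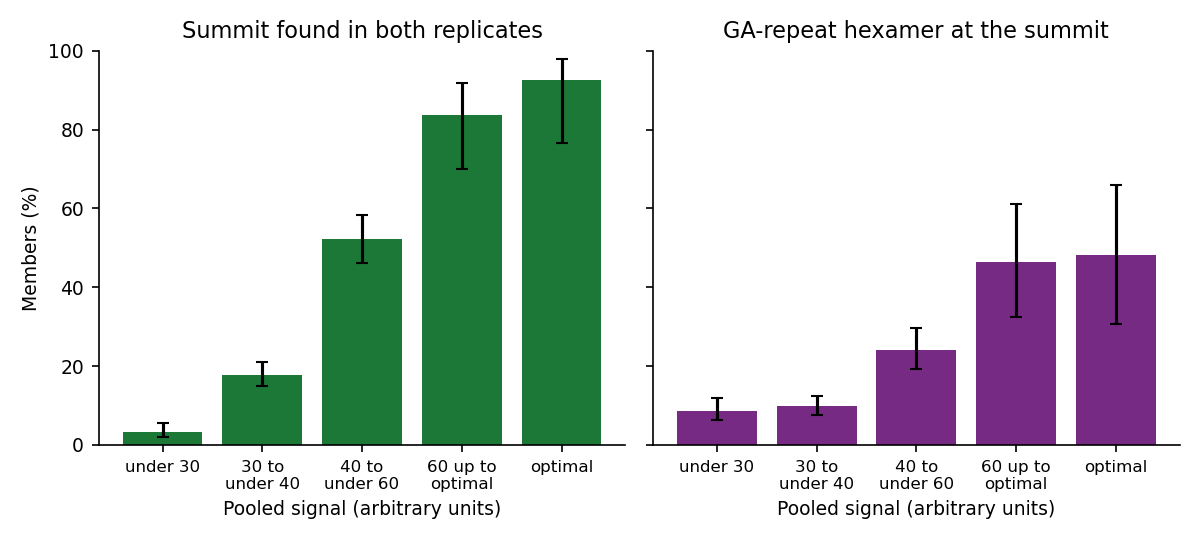
Share of members (%) by pooled signal (arbitrary units), with Wilson 95% intervals. Left, members with a summit in both replicates within 100 bp, from 3.38% under 30 to 92.6% of optimal members. Right, members with the GA-repeat hexamer within 50 bp of the summit, from 8.70% to 48.1%.

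A GA repeat was gained at the summits. GAGAGA, read on either strand, lay within 50 bp of 191 of the 1356 summits (14.1%; 12.3 to 16.04%), against 74 windows of equal width centred 400 bp away (5.46%; 4.37 to 6.8%). The log2 ratio was 1.36 (exact McNemar test, two-sided, Benjamini-Hochberg adjusted over all hexamers, p = 8.9e-11). The ratio was smaller on the replicate 1 list alone (0.63, adjusted p = 0.0123 by the exact test), on the replicate 2 list alone (0.86) and with the flank on the other side of the summit (0.90). Of 164775 adjacent windows of the same width that tile the autosomal intergenic sequence of the rule, 5.53% held it, close to the share in the flanks. AGAGAG, the same repeat shifted by 1 base, lay at 12.1% of summits and 4.13% of flanks. The share of GAGAGA per 50 bp was higher nearer the summit: it was 3.17% at 450 to 500 bp on the left and 2.88% on the right, and 7.97% and 8.48% in the 2 bins that meet at the summit. The optimal members had 13 of 27 summits with GAGAGA (48.1%; 30.7 to 66.0%) against 2 of 27 flanks (7.41%; 2.06 to 23.4%), which gave an unadjusted p of 0.00342 and an adjusted p of 1 by the exact McNemar test over all hexamers. These 13 were the peaks near T04C4.3, nlp-40, hif-1, mtm-3, F40E3.3, F58D5.5, R05C11.4, chd-7, K08F11.1, nhr-20, nhr-88, F07H5.7 and znf-782, on all 5 autosomes.

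**Figure D5:**
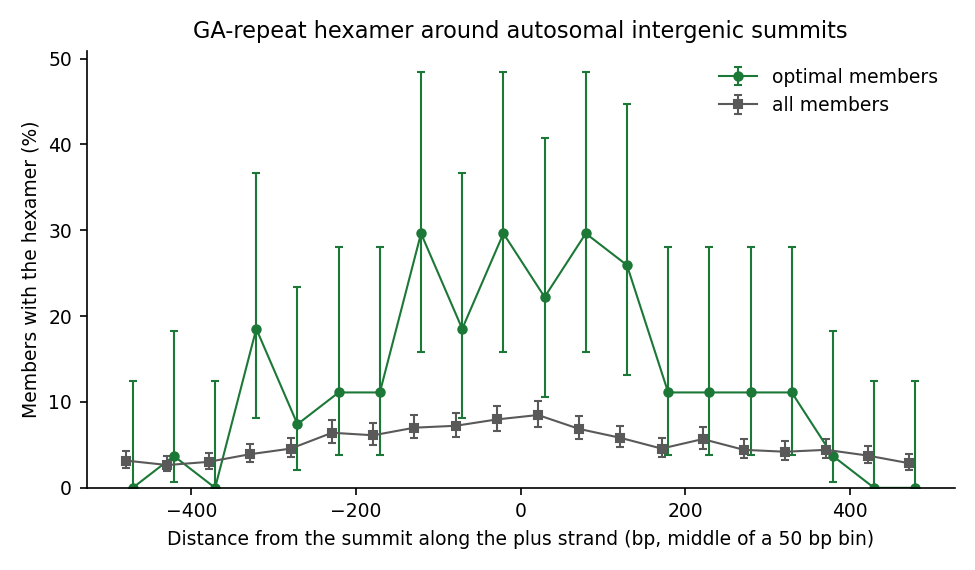
Share of members (%) with the GA-repeat hexamer, read on either strand, in bins of 50 bp by distance from the summit, with Wilson 95% intervals. For all 1356 members (squares) the share is highest in the bins at the summit, 7.97% and 8.48%. For the 27 optimal members (circles) the bins from 150 bp left to 150 bp right hold 18.5 to 29.6%, with no single highest bin at the summit. The bin 300 to 350 bp left also holds 18.5% of them.

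The GA repeat went with stronger members. It lay at 8.70% of summits with a pooled signal under 30, 9.77% from 30 to under 40, 24.0% from 40 to under 60 and 46.5% from 60 up to the optimal list. Of the 191 members with GAGAGA 13 were optimal (6.81%; 4.02 to 11.3%), and of the 1165 without it 14 were (1.20%; 0.717 to 2.01%). Both replicates found 41.4% of the members with it (34.6 to 48.5%) and 20.6% of those without (18.4 to 23.0%). GC content moved in the same direction, with medians of 35.1%, 35.6%, 38.6%, 46.5% and 51.5% over the same signal classes up to the optimal members. Whether GC content has a part in the share of the repeat was not tested.

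Optimal members carried GAGAGA more often than optimal promoter peaks did. The share was 48.1% of the 27 members and 23.8% of the 122 autosomal promoter peaks (29 peaks; 17.1 to 32.1%), a log2 odds ratio of 1.56 ± 0.62 (0.34 to 2.79; adjusted p = 0.0284 by the two-sided exact test of Fisher over the same 5 tests). The call did not hold with the promoter window from 2000 bp upstream (1.30, adjusted p = 0.102 by the exact test), with the stronger 1/2 of the optimal list (1.15, 0.447), with the replicate 2 list in place of the pooled one (1.21, 0.0946) or with windows left out that have a copy elsewhere (1.40, 0.0533). In optimal X-linked intergenic peaks the share was 23.3% (7 of 30; 11.8 to 40.9%), and the log2 odds ratio of 1.54 ± 0.81 had an adjusted p of 0.0734 by the exact test (95% interval -0.052 to 3.14). On the replicate 1 list alone that odds ratio was 2.74 with an adjusted p of 0.00114 by the exact test. Optimal autosomal intronic peaks had it at 11 of 27 summits (40.7%), which was not tested.

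Many hexamers differed between summits and flanks over all members. By the exact McNemar test adjusted over all hexamers, 84 (4.04%) were more frequent at summits and 32 (1.54%) less frequent. Both directions together made 116 calls, against 37 on the replicate 1 list alone and 56 on the replicate 2 list alone. Of the 84, 62 had 4 or more G or C letters, and of the 32, 31 had 2 or fewer, where 720 of all hexamers fall in each range. The median GC content was 36.6% at summits and 33.7% in the flanks. Over the 27 optimal members 0 hexamers were more frequent (0%) and 0 less frequent (0%) past the adjusted threshold by the exact McNemar test, with 16 at an unadjusted p under 0.05. Their GC content was 51.5% at summits and 38.6% in the flanks.

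Besides the GA repeat, a hexamer with a CpG was gained. ACGCAG, read on either strand and singled out after its values were seen, lay at 5.46% of member summits and 1.47% of flanks (log2 ratio 1.86, exact McNemar test over all hexamers, adjusted p = 2.8e-06), and in 1.98% of the tiled windows. It lay at 8 of the 27 optimal summits (29.6%; 15.9 to 48.5%). GAGAGA lay at 13 of the 27 and either hexamer at 14, so most of the 8 held both. Optimal autosomal promoter peaks had it at 22.1% (15.7 to 30.3%), optimal X-linked intergenic peaks at 16.7% (7.34 to 33.6%) and optimal autosomal intronic peaks at 11.1% (3.85 to 28.1%). It shares letters with CGCAGA, which was also called higher (6.12% of summits, 1.92% of flanks). Among 8-letter words GAGAGAGA lay at 62 member summits against 8 flanks, and GACGCAGA at 37 against 6.

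No gain of sequences bound by sine oculis and other homeodomain proteins passed the test adjusted over all hexamers. TGATAC, a core of sine oculis family sites in flies and mammals, lay at 2.21% of member summits against 3.1% of flanks (exact McNemar test, adjusted p = 0.506) and in 3.14% of tiled windows, and at 0 of 27 optimal summits, which allows a share of up to 12.5% (Wilson 95% interval). TAATTA, a general homeodomain core, lay at 7.01% of summits against 4.79% of flanks (exact test, adjusted p = 0.137), in 4.85% of tiled windows and at 0 of 27 optimal summits. Its unadjusted p was 0.0161 by the exact McNemar test, and its interval at summits was 5.77 to 8.49%. Over all their peaks the compared parts differed in the same direction, which was not tested. Shares at summits and flanks were 6.99% and 4.31% in autosomal promoter peaks and 6.95% and 4.97% in intronic peaks. In X-linked intergenic peaks they were 6.0% and 3.6%. TGATAA, the core of GATA factor sites, lay at 7.6% of member summits against 8.19% of flanks and CACGTG, the E-box, at 1.47% against 1.7%, with adjusted p of 0.907 and 0.968 by the exact test, and in 8.85% and 1.5% of tiled windows. CACACA lay at 7.45% of summits and 5.38% of flanks (exact test, adjusted p = 0.212; tiled windows 4.58%), and it passed the threshold with 100 bp on each side of the summit (log2 ratio 0.61, adjusted p = 0.00241 by the exact test). AAAAAA was less frequent at summits, with 40.3% against 48.8% in flanks (log2 ratio -0.27, exact test, adjusted p = 0.00132; tiled windows 44.6%). That call did not hold on the replicate 2 list alone (-0.15, adjusted p = 0.0517 by the exact test), on the replicate 1 list alone (-0.10, 0.338), with 25 bp on each side of the summit (-0.19, 0.396) or with the flank 800 bp away (-0.092, 0.576).

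Some members lay in repeated sequence, and few carried small RNA motifs. Lower-case (repeat-masked) letters of the reference covered 50% or more of the window at 28.7% of summits and 35.2% of flanks, and at 3 of 27 optimal summits. Windows with a copy elsewhere in the genome (90% identity over 80% of the window) numbered 84 (6.2%; 5.03 to 7.61%), against 3.43% in X-linked intergenic peaks (2.23 to 5.24%) 2.9% in autosomal promoter peaks (2.37 to 3.55%) and 5.48% in autosomal intronic peaks (4.46 to 6.72%). Of the 84, 30 had 10 or more copies, up to 802. CTGTTTCA, the core of the motif upstream of piRNA genes, lay at 6 member summits and 24 flanks, and GTTCGANTC, the B box of RNA polymerase III genes, at 4 summits and 1 flank. The rule kept summits over 100 bp from piRNA and tRNA genes but set no such limit on flanks. These counts therefore cannot be read as a lack of the motifs at summits. An annotated tRNA pseudogene lay within 100 bp of 3 members, none of them optimal.

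The peaks nearest the edges of the rule were mostly weak on both sides. The 52 members in the first 100 bp outside the upstream end of a promoter window had a median pooled signal of 35.2 with 2 optimal, and the 46 promoter peaks in the last 100 bp inside it had 30.9 with 1 optimal. The 90 members over 100 and up to 200 bp from a small RNA gene had a median of 31.99 with 1 optimal. The 167 peaks 1 to 100 bp from such a gene that otherwise met the rule had 35.2 with 10 optimal.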

How the data were processed

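ChIP-seq peaks of CEH-32-GFP were analysed in 2 biological replicates of 1 group. The peak signal was computed by the authors and used as deposited: relaxed lists for each replicate and for pooled replicates, and a thresholded optimal list, all on build ce11. The sources used here name no aligner, peak caller or threshold. The ce10 lists were not used. The lists hold no read numbers, so depth is unknown and intervals on shares (Wilson, 95%) cover counting error only.

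Summits were placed on the WBcel235 annotation (Ensembl release 115) and the RefSeq sequence of the same build. A pooled peak was optimal where its summit was in the optimal list. For a replicate list alone, the 412 peaks of highest signal in that list were taken as optimal, without a reproducibility threshold. A pooled summit recurred where a replicate summit lay within 100 bp. Shares of peaks were compared by Fisher's exact test, two-sided, with 0.5 added to each cell for odds ratios. Hexamers, both strands joined, were compared between the summit with 50 bp on each side and an equal window 400 bp away on a seeded random side by the exact McNemar test. Benjamini-Hochberg adjustment ran over all tests of a family, with a threshold of 0.05. Both tests were tested on simulated data. Copies were found with BLAST 2.17.0; other steps used Python 3.11.15, SciPy 1.17.1, numpy 2.4.6, pandas 2.3.3 and matplotlib 3.10.9.

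Peaks named were the 15 strongest optimal members, the 2 strongest on each autosome, those at the rule's edges, and optimal members near listed genes or in annotated noncoding genes. Other named peaks, ACGCAG and the 8-letter words were chosen after their values were seen. The members, lists and tests were chosen with earlier results of these data known. Alternatives covered promoter and small RNA distances, window and flank, matching distance, the optimal threshold and each replicate alone. Leaving out windows with copies and keeping 1 peak per 500 bp were added after seeing the data.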

Additional observations from a re-analysis of the deposited data

How the results depend on the processing

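Results were recomputed under 16 alternatives, which gave 275 values. The lower optimal share of members than of X-linked intergenic peaks passed the threshold under every alternative that was run, with the promoter window, small RNA distance, other annotated genes, optimal threshold, replicate list, copies or peak spacing changed. The share optimal was 0.811% with the stronger 1/2 of the optimal list. With the promoter window from 2000 bp upstream, members against promoter peaks gave a log2 odds ratio of -0.45 for the optimal share and 1.30 for GAGAGA, neither past the threshold, and 50 hexamers were called. With the stronger 1/2 of the list the same odds ratios were -1.02 and 1.15, neither past it. With copies left out, GAGAGA against promoter peaks gave 1.40 (adjusted p = 0.0533, exact test). GAGAGA against X-linked intergenic peaks passed the threshold with a promoter window from 500 bp upstream (1.64), with over 500 bp from small RNA genes (2.26) and with 25 bp on each side of the summit (2.77). Hexamer calls numbered 41 with 25 bp on each side, 240 with 100 bp and 65 with the flank at 800 bp. Recurrence in both replicates was 13.4% within 50 bp, 33.3% within 200 bp and 39.4% by any overlap of regions. With 1 replicate's list in place of the pooled one, members numbered 1882 to 2105 and hexamer calls 37 to 56, and the log2 odds ratios ranged from 0.70 to 0.83 against intronic peaks, 1.21 to 2.06 for GAGAGA against promoter peaks and 1.48 to 2.74 for it against X-linked intergenic peaks. The first passed the threshold on replicate 1 alone (adjusted p = 0.0465, exact test). No value that passed the threshold changed sign. Of hexamers that did not pass, TGATAA gave a log2 ratio of 0.17 with the window from 2000 bp, and CACGTG gave 0.053 with that from 500 bp, 0.19 with 100 bp on each side and 0.23 and 0.29 on single replicates, opposite in sign to the values reported. The causes were not tested. No paired analysis was possible because there was 1 group. Counts of 27 optimal members limit every share over them, and the number of reads behind each peak is unknown.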

Other observations

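Several genes collected more than 1 member. F54F12.1, Y39E4B.6 and tln-1, the talin gene, each had 5 members with their start as the nearest. Near F54F12.1 the optimal member, 7150 bp upstream with a pooled signal of 93.4, had pooled peaks 217 and 721 bp away with signals of 31.8 and 28.2, which were members as well.

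A second pooled summit stood about 200 bp from some optimal members. Of the 27 optimal members, 13 had another pooled peak within 1000 bp, and 2 had an optimal one, the pair at sup-26. No like share is given for other peaks, so these counts cannot be read as a trait of the optimal members. The distance was 203 bp at R05C11.4, 205 bp at K08F11.1, 212 bp at chd-7, 214 bp at F58D5.5, 216 bp at nhr-88 and 202 bp at ceh-32, and the neighbours had signals of 50.2, 58.5, 41.3, 42.0, 29.0 and 37.2. At Y37A1B.7 it was 203 bp, with a neighbour of 33.4, and at F54F12.1 217 bp, as given above. Most regions of the lists had a fixed width, at 420 bp for 1350 of the 1356 members, while 6 of the 27 optimal members were narrower.

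The F44E5.5 and gpb-1 peaks lay near each other on chromosome II, at positions 11761955 and 11749810. Both had the higher signal in replicate 1, with 85.6 against 29.7 in replicate 2 at F44E5.5, and 71.3 against 48.8 at the nearest replicate 2 summit of gpb-1.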
